A study of Mus musculus with 5 samples.

Results

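The genes described here are Id1, Id2 and Id3 together with 7 genes of bone morphogenetic protein (BMP) signalling, Bmp4, Bmp7, Bmpr1a, Bmpr2, Smad1, Smad5 and Smad6. They were chosen by pathway, with earlier results of these data known. Of these 10 genes, 9 were among the 12934 genes listed in the deposited counts, and all 9 passed the expression filter, while Bmp7 was not listed and was not analysed here. RNA was measured in EpH4 cells, a mouse mammary epithelial line that arose by spontaneous immortalization in a BALB/c mouse, grown in DMEM with serum. All libraries came from cells transduced with Cas9 and then with an sgRNA, each step followed by antibiotic selection of stable clones, and whether a library came from 1 clone or from pooled cells is not stated. The 3 sgControl libraries carried a control sgRNA and the 2 sgMef2d libraries an sgRNA against Mef2d, a MADS-box transcription factor. The study used more than one sgRNA against Mef2d, and the labels do not tell which of them a library carries. They also do not tell whether the libraries of a group were separate cultures, so p-values measure only the spread between these libraries.

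BMPs are secreted ligands of the TGF-beta superfamily that bind a complex of type I receptors, such as BMPR1A, and type II receptors, such as BMPR2. The type II receptor activates the type I receptor, which phosphorylates SMAD1 and SMAD5, and these enter the nucleus with SMAD4 to act on target genes. The Id genes are among the most direct of these targets. Id proteins have a helix-loop-helix domain without a DNA-binding region, and they bind E proteins and keep them from DNA. SMAD6 is an inhibitory SMAD that is itself induced by the pathway. In the mammary gland, BMP signalling and Id proteins are known for parts in bud formation, ductal growth and the balance between growth and differentiation.

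The counts summed to between 13601145 and 20498563 per library, and 3 counts, taken as the limit of detection, corresponded to between 0.146 and 0.220 CPM (read counts relative to library size, scaled by the TMM method of edgeR). In sgControl replicate 1 many genes stood apart from the rest of its group. Its chi-square per degree of freedom, 1 under counting error alone, was 10.3 and 13.3 against the other sgControl libraries, as against 1.99 between those and 2.03 between the sgMef2d libraries. Pairs of libraries from different groups had 10.6 to 12.7. This measure grows with depth, and sgControl replicate 1 was the deepest library. Pearson's r of log2 CPM across genes, which are not independent replicates, was 0.992 and 0.991 between this library and the rest of its group, 0.994 between the other sgControl libraries and 0.984 to 0.986 between groups. The target Mef2d had 64.3, 76.9 and 71.5 CPM in sgControl and 64.2 and 65.8 CPM in sgMef2d, a log2 fold change (log2FC) of -0.12 (edgeR adjusted p = 0.40). Without sgControl replicate 1 it was -0.19 (edgeR adjusted p = 0.00549), and without sgControl replicate 2 it was -0.06 (edgeR adjusted p = 0.77). The RNA level of the target thus gave no firm check of the labels. The paper reports from an immunoblot that its sgMEF2D cells lacked MEF2D protein, which RNA counts do not measure. Of 10 luminal epithelial markers 9 were listed, with a summed level of 2740 to 2840 CPM in sgControl and 2700 to 2800 CPM in sgMef2d, and past the threshold given below 1 was lower (Krt18, means of 705 and 591 CPM) and 1 higher (Cldn4, 160 and 192 CPM). The 5 listed of 7 basal markers summed to 483 to 492 and 950 to 1010 CPM, mostly Krt14 (means of 439 and 902 CPM), and 4 were higher and 1, Acta2 (18.6 and 10.6 CPM), lower past it. The 7 listed of 9 fibroblast markers summed to 1420 to 1550 and 1090 to 1130 CPM, with 2 lower (Postn, 778 and 481 CPM, and Col1a2, 425 and 291 CPM) and 2 higher (Col3a1, 1.85 and 5.03 CPM, and Dcn, 1.38 and 3.39 CPM) past it. None of 6 endothelial markers and 2 of 7 immune markers were listed, the latter with 3 to 4.11 CPM in sum over all libraries. In bulk RNA, fewer cells of a type and less RNA per cell cannot be told apart, and the part of the basal and fibroblast markers in the values below was not tested.

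None of the 9 genes passed the threshold between sgMef2d and sgControl EpH4 cells. The threshold, an adjusted p below 0.05 in the quasi-likelihood test of edgeR, was reached by 0 of 9 genes and by 7.95% of the 12483 genes tested (3.67% higher and 4.28% lower in sgMef2d). Unadjusted, a p below 0.05 was found for 3 of the 9 genes (Id2, Bmpr1a and Bmpr2) and for 23.2% of all genes. With DESeq2 and limma-voom, 0 of the 9 genes and 6.44% and 7.55% of all genes had an adjusted p below 0.05. Unadjusted, they gave 2 and 3 of the 9 genes and 16.7% and 22.9% of all genes. The other normalizations, expression filters and the legacy form of the edgeR test also gave 0 of the 9 genes, with 7.94%, 7.88%, 7.93%, 7.68%, 8.12% and 7.87% of all genes. Both sgMef2d libraries lay above all 3 sgControl libraries in 1 of the 9 genes and below them in 3, against 20.6% and 20.5% of all genes, and on either side in 4 of 9 against 41.1%. The median log2FC of the 9 genes was -0.11, or -0.05 without sgMef2d replicate 2, and that of all genes tested was 0.0031. The median absolute values were 0.14 for the 9 genes and 0.12 for all genes.

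**Figure D1:**
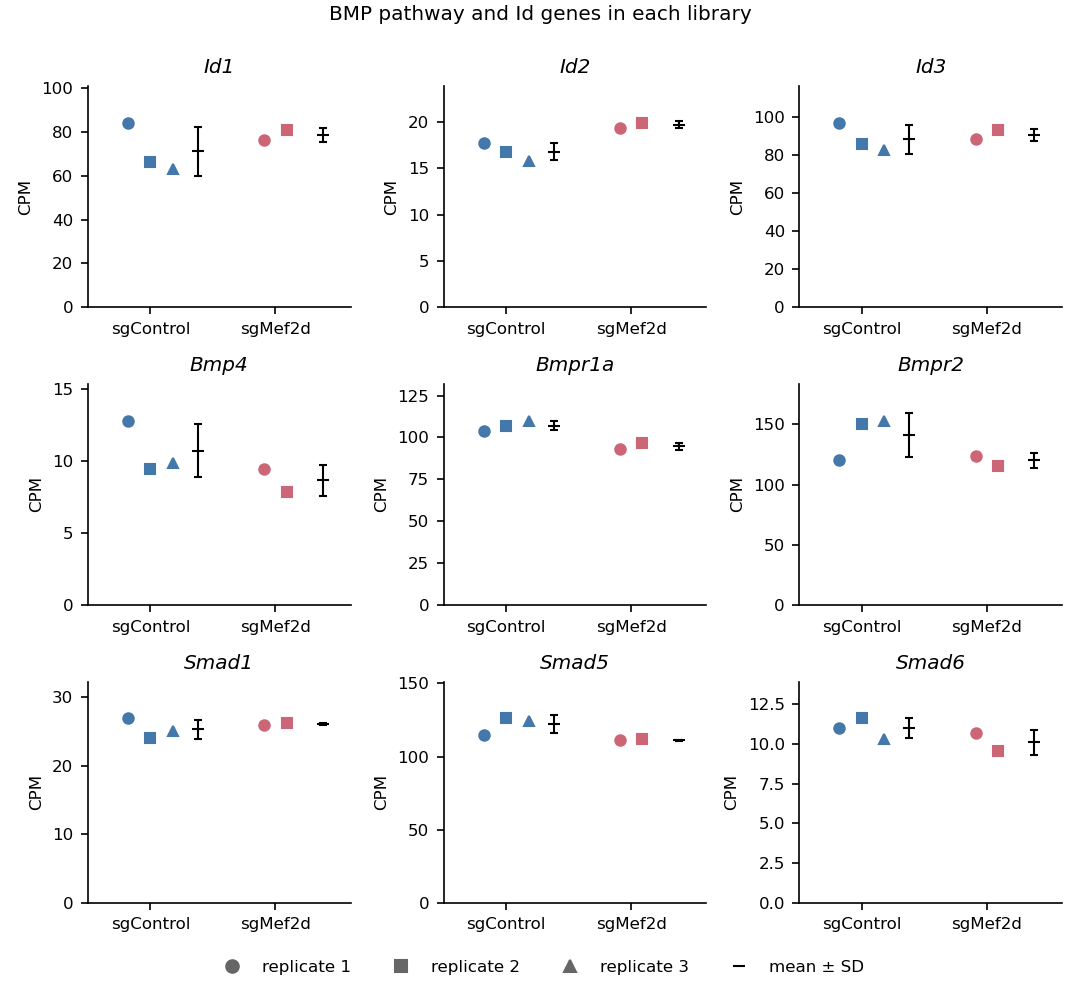
Level in CPM (linear axis from 0) of the 9 listed genes in each of the 3 sgControl and 2 sgMef2d libraries. Marker shapes give the replicate number and the bars beside them the mean ± SD of the group. sgControl replicate 1 lies apart from the other sgControl libraries for Id1 (84.1 CPM), Bmp4 (12.8 CPM) and Bmpr2 (120 CPM).

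Sequences of Id2 and Bmp4 upstream of the start that RefSeq annotates are shown because these genes had the highest and the lowest log2FC of the 9. They come from RefSeq (GRCm38.p6), which gave a window for 8 of the 9 genes, Id1 having no entry. The Bmp4 stretch of 250 bases, chr14:46390670-46390919, ends where the gene begins in GENCODE as well. GENCODE places the start of Id2 farther upstream, so the Id2 stretch of 89 bases, chr12:25096254-25096342, begins 798 bases inside the annotated gene and lies in an intron, next to the exon that follows it. Both are read 5′ to 3′ on the minus strand. Capitals mark GGCGCC, a GC-rich element to which SMAD1 and SMAD5 are known to bind, and CANNTG, the E-box bound by E proteins. Both read the same on either strand in this form, and no 2 matches overlap.
Id2: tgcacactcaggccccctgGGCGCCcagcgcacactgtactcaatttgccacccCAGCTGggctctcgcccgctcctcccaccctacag
Bmp4: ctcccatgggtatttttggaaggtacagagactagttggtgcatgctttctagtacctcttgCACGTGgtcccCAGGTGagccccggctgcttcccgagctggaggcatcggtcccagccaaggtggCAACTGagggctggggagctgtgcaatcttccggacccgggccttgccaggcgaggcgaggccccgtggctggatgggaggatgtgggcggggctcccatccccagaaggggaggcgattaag

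The Id2 stretch held 1 GGCGCC and 1 E-box, and the Bmp4 stretch 3 E-boxes and no GGCGCC. Of 32851 windows of RefSeq starts, 2.73% held GGCGCC and 33.0% an E-box in the first 89 bases, the length and position of the Id2 stretch. In the full 250 bases before the RefSeq start, 9.59% held GGCGCC and 66.2% an E-box. The 8 genes with an entry have 10 such windows, 3 of them of Smad5, and GGCGCC occurred in 4 of the 10 windows (4 genes) and an E-box also in 4 (3 genes). For Bmpr1a, Bmpr2 and Id2, 3 of the 4 genes with GGCGCC, the window lies inside the gene as GENCODE annotates it, and for Smad5 it crosses the annotated start. The E-box of Id2 lies inside the gene too, while those of Bmp4 are in a window before the gene and Smad5 has an E-box in a window before the gene and in one across its start. The MEF2 motif, searched on both strands, occurred in 0 of the 10 windows and in 0.508% of all windows. These matches describe letters in a window, and binding was not measured.

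The first of the genes in the order of the pathway is the ligand Bmp4 (ENSMUSG00000021835.15, minus strand of chromosome 14 of GRCm38, 46383520 to 46390669). It had 12.8, 9.43 and 9.89 CPM in the sgControl libraries, in the order of replicates 1 to 3, and 9.42 and 7.88 CPM in those of sgMef2d, an order used for all genes here. The sgMef2d libraries lay below the sgControl libraries, but sgMef2d replicate 1 and sgControl replicate 2 were all but equal. Mean levels were 10.7 ± 1.84 CPM in sgControl and 8.65 ± 1.09 CPM in sgMef2d (SD, n = 3 and n = 2). The log2FC was -0.33 (SE 0.160, 95% interval -0.68 to 0.03, edgeR adjusted p = 0.251), the lowest of the 9 genes and the least certain. These CPM rest on 117 to 263 counts per library. Without sgControl replicate 1 the log2FC was -0.15 (edgeR adjusted p = 0.499). With the ligand Bmp7 and 11 of 12 other ligands of the family not listed, Bmp4 and Gdf5, described further down, were the BMP ligands with counts in this table.

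Both receptor genes had a negative log2FC that did not pass the threshold. Bmpr1a (ENSMUSG00000021796.15, minus strand of chromosome 14, 34410734 to 34503341), which encodes a type I receptor, had 104, 107 and 110 CPM in sgControl and 93.3 and 96.4 CPM in sgMef2d. Both sgMef2d libraries were below all sgControl libraries, and the replicates of each group were close together. The log2FC was -0.17 (SE 0.060, 95% interval -0.30 to -0.04, edgeR adjusted p = 0.108), a ratio of 0.887. This was the smallest adjusted p of the 9 genes. Bmpr2 (ENSMUSG00000067336.6, plus strand of chromosome 1, 59763400 to 59879014), which encodes the type II receptor, had 120, 150 and 153 CPM in sgControl and 124 and 115 CPM in sgMef2d. Here the groups overlapped, with sgControl replicate 1 at the level of the sgMef2d libraries and far below the other sgControl libraries. The log2FC was -0.23 (SE 0.096, 95% interval -0.44 to -0.02, edgeR adjusted p = 0.171).

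None of the SMAD genes passed the threshold, and of the 3 only Smad5 separated the groups. Smad1, a receptor-regulated SMAD (ENSMUSG00000031681.16, minus strand of chromosome 8, 79338395 to 79399518), had 26.9, 24.0 and 25.1 CPM in sgControl and 26.0 and 26.2 CPM in sgMef2d. The sgMef2d values lay within the sgControl range, and the log2FC was 0.04 (95% interval -0.15 to 0.23, edgeR adjusted p = 0.831). Smad5, also receptor-regulated (ENSMUSG00000021540.16, plus strand of chromosome 13, 56703010 to 56742377), had 115, 126 and 124 CPM in sgControl and 111 and 112 CPM in sgMef2d. Both sgMef2d libraries were lower than all sgControl libraries, with a log2FC of -0.13 (95% interval -0.26 to 0.01, edgeR adjusted p = 0.264). Smad6 (ENSMUSG00000036867.7, minus strand of chromosome 9, 63953076 to 64022059), the inhibitory SMAD, had 11.0, 11.6 and 10.3 CPM in sgControl and 10.7 and 9.56 CPM in sgMef2d. Its groups overlapped, and its log2FC was -0.11 (95% interval -0.38 to 0.15, edgeR adjusted p = 0.625).

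The Id genes, the transcriptional output of the pathway, had a positive log2FC that did not pass the threshold, and that of Id3 was near 0 and turned negative without sgControl replicate 3 (-0.01) or sgMef2d replicate 2 (-0.004). Id1 (ENSMUSG00000042745.9, plus strand of chromosome 2, 152736251 to 152737410) had 84.1, 66.4 and 63.2 CPM in sgControl and 76.2 and 80.9 CPM in sgMef2d. The highest of the 5 libraries was sgControl replicate 1, and both sgMef2d libraries lay above the other sgControl libraries. Mean levels were 71.2 ± 11.2 CPM in sgControl and 78.5 ± 3.30 CPM in sgMef2d (SD, n = 3 and n = 2), with a log2FC of 0.13 (95% interval -0.10 to 0.37, edgeR adjusted p = 0.494). Id2 (ENSMUSG00000020644.9, minus strand of chromosome 12, 25093799 to 25097140) had 17.7, 16.8 and 15.8 CPM in sgControl and 19.4 and 19.9 CPM in sgMef2d. It was the only one of the 9 genes with both sgMef2d libraries above all sgControl libraries, as were 20.6% of all genes. Its log2FC of 0.22 (95% interval 0.01 to 0.43, edgeR adjusted p = 0.190) was the highest of the 9. Id3 (ENSMUSG00000007872.3, plus strand of chromosome 4, 136143497 to 136145755) had 97.0, 85.7 and 82.6 CPM in sgControl and 88.6 and 93.1 CPM in sgMef2d. Its groups overlapped, with a log2FC of 0.04 (95% interval -0.13 to 0.20, edgeR adjusted p = 0.830).

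A 95% interval on the log2 scale states which changes these libraries leave possible. Apart from Bmp4, the intervals of the 9 genes lay between -0.44 and 0.43. For Id3 the interval corresponded to ratios of sgMef2d to sgControl from 0.912 to 1.15, for Smad1 from 0.902 to 1.17, and for Smad5 from 0.833 to 1.01. For Bmp4 it was the widest, from 0.625 to 1.02, and for Smad6, the lowest of the 9 genes per length, it ran from 0.770 to 1.11.

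The result for these genes depended on sgControl replicate 1. In that library, Id1 stood 0.38 and Bmp4 0.40 above the mean of the other sgControl libraries on the log2 CPM scale, and Bmpr2 stood 0.34 below it, while the median absolute difference over all genes tested was 0.13. These 3 genes lay farther from the rest of their group than 88.9%, 90.6% and 86.3% of all genes. Without this library, 5 of the 9 genes passed the threshold, as did 29.4% of all genes in that fit. Id1 was then higher in sgMef2d with a log2FC of 0.28 (edgeR adjusted p = 4.41e-05) and Id2 with 0.27 (edgeR adjusted p = 0.0471). Bmpr2 was lower with -0.34 (edgeR adjusted p = 1.22e-09), Bmpr1a with -0.19 (edgeR adjusted p = 0.00120) and Smad5 with -0.17 (edgeR adjusted p = 0.00328). Id3, Bmp4, Smad1 and Smad6 did not pass it. Leaving out sgControl replicate 2 or 3 or sgMef2d replicate 1 or 2 gave 0 calls among the 9 genes, with 4.84%, 6.51%, 1.88% and 1.83% of all genes called. What sets sgControl replicate 1 apart was not tested.

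**Figure D2:**
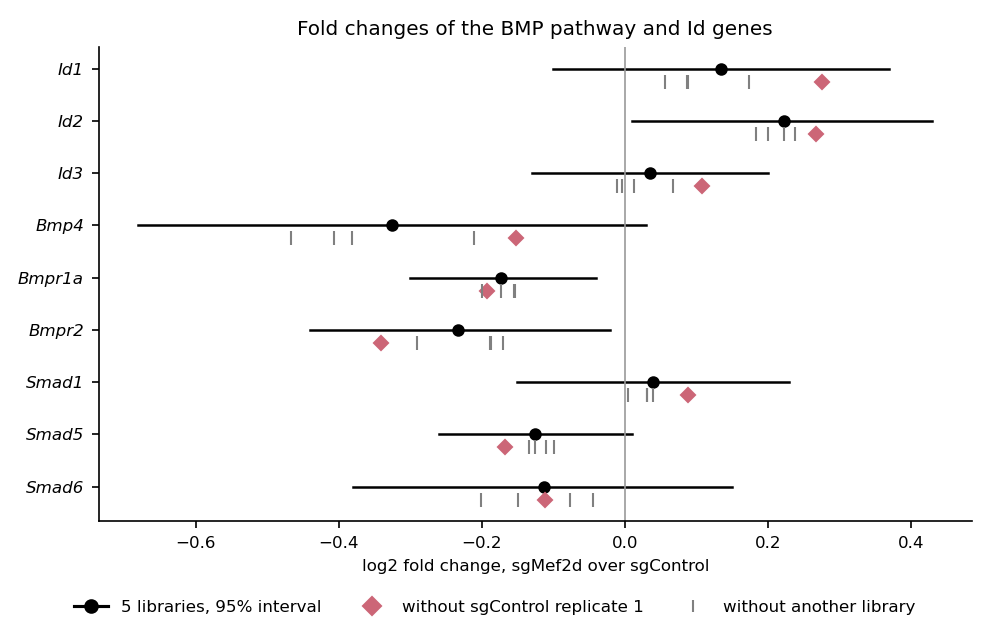
Log2 fold change of sgMef2d over sgControl for the 9 genes. Black points and lines are the edgeR estimates from 5 libraries with their 95% intervals, red diamonds the estimates without sgControl replicate 1, and grey ticks those without one of the other libraries. Without sgControl replicate 1, Id1 moves from 0.13 to 0.28, Bmpr2 from -0.23 to -0.34 and Bmp4 from -0.33 to -0.15. Without sgControl replicate 3, Id1 moves to 0.06.

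Levels of different genes were compared per exon length, as RPKM (CPM per kilobase of annotated exon). Id1 was the highest of the 9 genes with 61.4 ± 9.70 RPKM (SD, n = 3) in sgControl and 67.7 ± 2.84 RPKM (SD, n = 2) in sgMef2d, above 94.4% of the genes listed in sgControl. Id3 followed with 49.4 ± 4.24 RPKM (SD, n = 3) and 50.7 ± 1.77 RPKM (SD, n = 2), and the ranges of Id1 and Id3 over the 5 libraries did not overlap. Bmpr1a and Smad5 came next, with 14.7 to 17.3 and 15.0 to 17.0 RPKM over the 5 libraries, and they did not differ beyond their spread. Id2 and Bmpr2 had the same mean of 7.36 RPKM over the 5 libraries and overlapped, as did Bmp4 with 3.50 to 5.70 RPKM and Smad1 with 3.84 to 4.29 RPKM. By group mean, Bmpr2 was above Id2 in sgControl (7.83 and 6.89 RPKM) and below it in sgMef2d (6.65 and 8.07 RPKM). Smad6 had the lowest mean, with 2.98 to 3.61 RPKM and no overlap with Smad1, though its range overlapped that of Bmp4. Id1 and Id3 thus stood well above the third Id gene, Id2, and Smad5 above Smad1, in all 5 libraries. In sgControl the highest of the 9 genes was 18 times the lowest on this scale. Measured by the longest annotated transcript, Id3 came before Id1 (69.2 and 61.4 RPKM in sgControl), Smad5 before Bmpr1a (18.5 and 18 RPKM) and Smad1 before Bmp4 (6.71 and 5.19 RPKM).

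**Figure D3:**
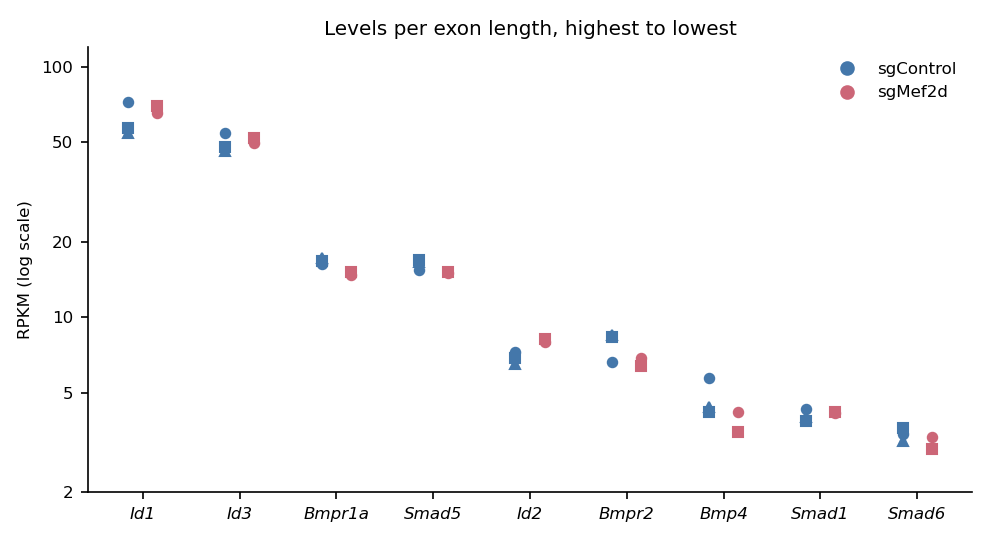
Levels per exon length (RPKM, log axis) of the 9 genes, ordered by their mean over 5 libraries. Blue points are the 3 sgControl and red points the 2 sgMef2d libraries, with replicate 1 as circles, 2 as squares and 3 as triangles. Id1 and Id3 lie at 46.1 RPKM or above in every library, and the other genes at 17.3 RPKM or below.

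The 9 genes differ widely in length, and over all genes the median log2FC differed with length. Id1, Id2, Id3 and Bmp4 were in the shortest of 4 equal groups of genes by exon length, Smad6 in the next, Bmpr1a and Smad1 in the third, and Smad5 and Bmpr2 in the longest. Over all genes tested, the median log2FC went from 0.06 in the shortest group through 0.02 and 3.04e-04 to -0.07 in the longest. In the same order, the median log2 difference of sgControl replicate 1 from the other sgControl libraries went from 0.12 through 0.03 and -0.03 to -0.09. With each library's trend with exon length removed, Id1 had a log2FC of 0.05 (edgeR adjusted p = 0.791), Id3 of -0.03 (edgeR adjusted p = 0.829) and Bmpr2 of -0.11 (edgeR adjusted p = 0.289). Id2 (0.18), Bmpr1a (-0.16), Smad5 (-0.08) and Bmp4 (-0.37) kept their sign, and 0 of the 9 genes passed the threshold, against 9.54% of all genes in that fit.

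**Figure D4:**
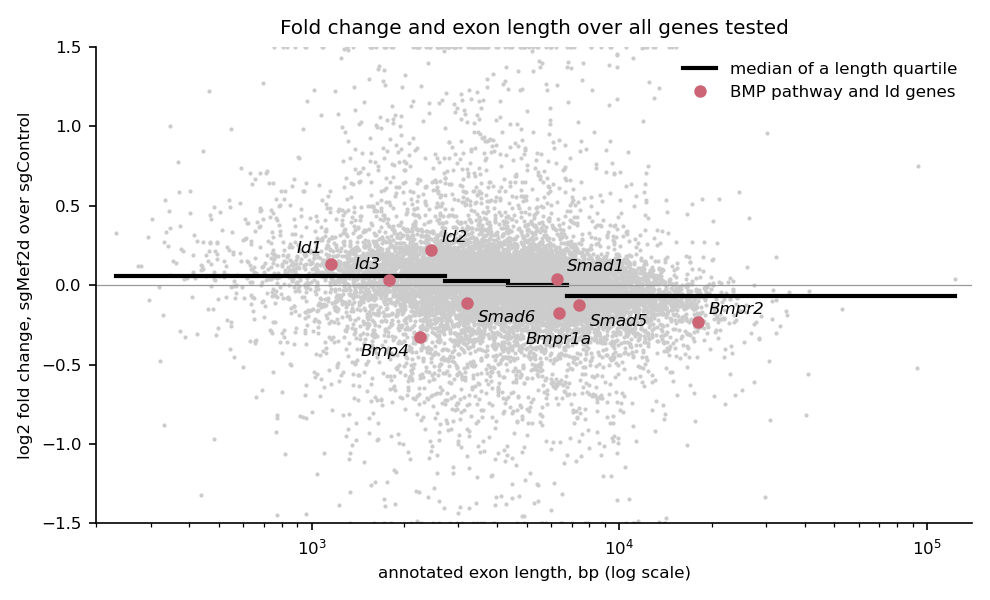
Log2 fold change of sgMef2d over sgControl against annotated exon length in bp (log axis) for the 12483 genes tested in grey, with values beyond 1.5 in size drawn at the edge. Black lines are the medians of 4 equal groups of genes by length, from 0.06 to -0.07, and red points the 9 genes.

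The rest of the pathway was read from a list of 69 further genes, of which 42 were listed and 39 tested. The symbol Hjv is not in GENCODE M21 and could not be matched. The list was compiled with earlier results of these data known, so its share of calls is no test of the pathway. The threshold was passed by 7 of the 39 genes, 2 higher and 5 lower in sgMef2d, which is 17.9% as against 7.95% of all genes tested. Their median log2FC was -0.07. By role, 1 of 1 ligand, 0 of 6 receptors and co-receptors, 0 of 2 SMADs, 3 of 9 extracellular antagonists and modulators, 1 of 13 intracellular and membrane regulators and 2 of 8 target genes passed it. Among the antagonists and modulators, and among the target genes, those past the threshold went both ways.

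Gdf5 (ENSMUSG00000038259.4, minus strand of chromosome 2, 155941023 to 155945367), a growth and differentiation factor of the BMP family known for its part in joint formation, fell. It had 31.7, 35.3 and 34.4 CPM in sgControl and 20.2 and 20.2 CPM in sgMef2d. All sgMef2d values were far below the sgControl values, with a log2FC of -0.74 (SE 0.086, edgeR adjusted p = 5.02e-04). Gdf5 and Bmp4, both ligands, thus had negative estimates, of which that of Gdf5 alone passed the threshold, and the difference between them was not tested.

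Among the extracellular antagonists and modulators, Crim1, a membrane protein with cysteine-rich repeats that binds BMPs, fell from 207 ± 24.6 to 137 ± 2.40 CPM (SD, n = 3 and n = 2). Its log2FC was -0.59 (edgeR adjusted p = 0.00222). Nbl1, a secreted antagonist of the DAN family, fell from 44.2 ± 1.76 to 31.5 ± 0.514 CPM (SD, n = 3 and n = 2), a log2FC of -0.49 (edgeR adjusted p = 0.00251). Fst, which encodes follistatin, a binding protein of activin and BMPs, rose from 38.2 ± 1.52 to 46.5 ± 2.90 CPM (SD, n = 3 and n = 2), a log2FC of 0.29 (edgeR adjusted p = 0.0397). The call of Fst was lost under DESeq2 (DESeq2 adjusted p = 0.0892). It was also lost without any single library except sgControl replicate 1, with an edgeR adjusted p between 0.0654 and 0.396.

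Within the cell, Skil, a co-repressor of SMAD proteins, fell from 181 ± 8.11 to 147 ± 8.12 CPM (SD, n = 3 and n = 2), a log2FC of -0.30 (edgeR adjusted p = 0.0157). This call was lost without sgControl replicate 2 (edgeR adjusted p = 0.0752) and without sgMef2d replicate 1 (0.0860) or 2 (0.280). Fkbp1a, which holds type I receptors inactive, had 296, 299 and 302 CPM in sgControl and 306 and 313 CPM in sgMef2d, a log2FC of 0.05 (edgeR adjusted p = 0.625). The common partner Smad4 had 83.7, 90.9 and 94.9 CPM in sgControl and 81.0 and 81.5 CPM in sgMef2d, with a log2FC of -0.14 (edgeR adjusted p = 0.243). Like Smad5, Smad4 passed the threshold without sgControl replicate 1, with a log2FC of -0.19 (edgeR adjusted p = 0.00211), as did 29.4% of all genes in that fit. The co-receptor Eng had a log2FC of 0.02 (edgeR adjusted p = 0.922) and 61.0 to 77.3 CPM over the 5 libraries.

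The target list also held Id4, the remaining member of the Id family, named here after its values were seen. It was low, with 8.04, 7.52 and 8.72 CPM in sgControl and 7.30 and 6.94 CPM in sgMef2d, and its log2FC was -0.18 (95% interval -0.48 to 0.12, edgeR adjusted p = 0.467). Of the 8 target genes tested, 1 fell and 1 rose. Msx2, a homeobox gene known as a BMP target, had 58.2, 56.8 and 53.8 CPM in sgControl and 41.3 and 42.6 CPM in sgMef2d. It fell with a log2FC of -0.43 (edgeR adjusted p = 0.00385). Tbx3, a T-box gene needed for the mammary gland to form, had 7.02, 7.80 and 6.82 CPM in sgControl and 12.1 and 11.9 CPM in sgMef2d, and it rose with a log2FC of 0.73 (edgeR adjusted p = 0.00414). Msx2 and Tbx3 thus both separated the groups fully and had opposite signs. Such separation held for 6 of the 8 target genes tested and for 41.1% of all genes. Without sgMef2d replicate 1 and 2, the log2FC was -0.41 and -0.45 for Msx2 and 0.71 and 0.74 for Tbx3. Both genes lost their call in each of these fits, which hold 1 sgMef2d library. Nbl1 did so without sgMef2d replicate 2 (edgeR adjusted p = 0.0608). Runx2, a bone transcription factor, had a log2FC of 0.17 (edgeR adjusted p = 0.286), and of 0.07 without sgControl replicate 1.

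**Figure D5:**
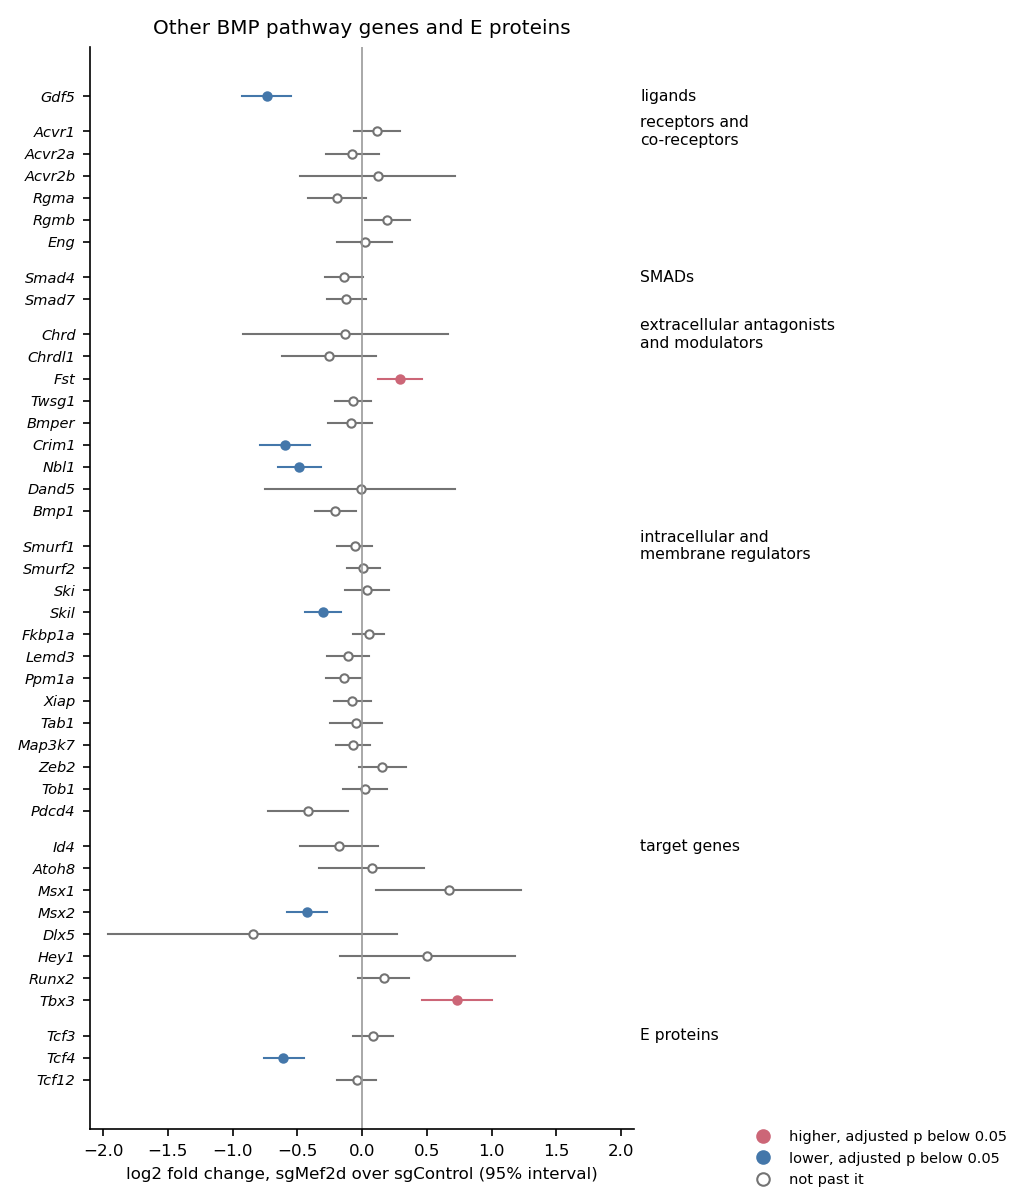
Log2 fold change of sgMef2d over sgControl with 95% intervals for the 39 other BMP pathway genes tested and the 3 E proteins, grouped by role. Filled points have an adjusted p below 0.05 in edgeR's quasi-likelihood test, red for higher and blue for lower in sgMef2d, and open points do not. Gdf5 (-0.74) is the lowest and Tbx3 (0.73) the highest of the filled points.

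E proteins are the transcription factors that Id proteins hold off DNA. Of 3 E protein genes, Tcf4 fell from 57.4 ± 2.16 to 37.6 ± 1.04 CPM (SD, n = 3 and n = 2), a log2FC of -0.61 (edgeR adjusted p = 5.19e-04). With the length trend removed it was -0.46 (edgeR adjusted p = 0.00105). Tcf12 had a log2FC of -0.04 (edgeR adjusted p = 0.762), and Tcf3 of 0.08 (edgeR adjusted p = 0.531). The summed RPKM of Id1, Id2 and Id3 was 3.83, 2.96 and 2.72 times that of the 3 E protein genes in sgControl, and 3.35 and 3.32 times in sgMef2d. This ratio, chosen after the values were seen, overlapped between the groups, with sgControl replicate 1 above and the other sgControl libraries below the sgMef2d libraries. It leaves out Id4 and rests on the union of exons, 27382 bp for Tcf4 and 15529 bp for Tcf12. Their longest transcripts have 8577 and 6299 bp, and the ratio by longest transcript was not computed.

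Little of the sequence of the 9 genes is shared with other genes. At most 0.680% of the 50-base words in their transcripts occurred in transcripts of another gene. Exons of Bmp4 and Bmpr1a overlap a gene on the opposite strand over 3.96% and 4.57% of their length, and those of Smad5 a small RNA gene on the same strand over 1.35%, none of them among the genes listed. The counting of reads by strand is not given in the sources used here.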

How the data were processed

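RNA of 3 sgControl and 2 sgMef2d EpH4 libraries was analysed. The authors checked reads with FASTQC, aligned them to GRCm38 with STAR2 and ran RSeQC, and the submitters' processing notes also name CASAVA and Subread. They deposited raw counts per gene, unnormalized. Every listed gene reached at least 11 counts in a library, so low genes had been removed before deposit. The methods name GENCODE version 22, while all 12934 identifiers matched the mouse release GENCODE M21 with the version dropped. Columns of per-sample values left unused were 0, and 0 entries lacked a gene name.

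The deposited counts were normalized by TMM (factors from 0.996 to 1.00) and filtered by expression by group, leaving 12483 genes. These were fitted with the quasi-likelihood test of edgeR 4.0.16 in R 4.3.3 in its bias-adjusted form, with Benjamini-Hochberg adjustment over all genes and a threshold of 0.05. The standard error is the absolute log2 fold change over the square root of F, and the 95% intervals use it. RPKM divides CPM by the union of annotated exons. Alternatives were other normalizations and filters, DESeq2 1.42.0, limma-voom (limma 3.58.1), the legacy form, replicate number as a block, and leave-one-out fits. Removal of the trend with exon length (loess, span 0.3) and an unadjusted p below 0.05 were added after seeing the data. The genes and lists were chosen with earlier results of these data known. Named were the 9 genes, Mef2d, and of the other pathway genes and E proteins those past the threshold and in each role the gene with the highest average log2 CPM, not corrected for length. Tcf3, Id4 and the genes at an unadjusted p were named after their values were seen. Log2 CPM used a prior count of 2. Intervals reflect counting and replicate error, and PCR copies were not identified. The scripts were tested on simulated counts. Luminal, basal and fibroblast markers were named after their values were seen.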

Additional observations from a re-analysis of the deposited data

How the results depend on the processing

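Between sgMef2d and sgControl, the number of genes past the threshold was 992. Leaving out each library in turn gave between 234 and 3639 genes, 3639 without sgControl replicate 1, 603 without sgControl replicate 2, and 238 and 234 without sgMef2d replicate 1 and 2, and an unadjusted p below 0.05 gave 2900. In the same alternatives the 9 BMP and Id genes had between 0 and 5 calls and 3 at an unadjusted p, and the other pathway genes and E proteins between 3 and 15, against 8, and 13 at an unadjusted p. All 8 were among the 15 called without sgControl replicate 1, while 4 and 3 were called without sgMef2d replicate 1 and 2. Normalizations, filters, tests and the length trend gave 0 calls among the 9 genes and 7 or 8 among the others. Whether the replicate numbers pair the libraries could not be settled. Correlations of deviations were 0.0113 and -9.16e-04 for the same number, but the deviations of 2 sgMef2d libraries mirror each other. With the replicate numbers as a block, in which sgControl replicate 3 has no partner, 1253 genes (10%) passed the threshold. These held 0 of the 9 genes and 9 of the others, Runx2 added. Id3 had a log2 fold change of -0.0087 with the block, of -0.03 with the length trend removed, and between -0.01 and 0.11 when a library was left out. Eng ranged from -0.07 to 0.10 when a library was left out, and Tcf12 turned to 0.06 with the length trend removed. For these changes the cause was not tested. With sgMef2d reduced to 1 library, the spread is that of sgControl alone, and the lone sample is assumed to vary like those. Bmp4 had 117 to 263 and Smad6 141 to 225 counts per library, and how much of the width of their intervals comes from depth was not tested.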
